A study of Mus musculus with 6 samples.

Results

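The series set cells of CGR8 mouse embryonic stem cells, an established line, after 5 days as embryoid bodies, sorted for both CXCR4 and FLK-1, against cells with neither. FLK-1 is the receptor encoded by Kdr, and both proteins mark mesoderm. The labels give 3 biological replicates sorted as positive for both (double positive, DP) and 3 sorted as negative for both (double negative, DN). Each sample had 1 Affymetrix array. The series text speaks of RNA pools without saying what was pooled, so the p-values measure the spread between these samples. Neither fraction carried a treatment or an engineered allele in the labels, and both came from the same line. The genes described here are the splicing factors and heterogeneous nuclear ribonucleoprotein (hnRNP) genes: every probe set whose name in the authors' comparison table begins with Hnrnp, Hnrp, Srsf, Sfrs, Sf3a, Sf3b, Prpf or Snrp, or is 1 of a short list of tissue regulators, with Snrpn left out. The rule found 158 probe sets of 59 genes among the 22526 probe sets and 12977 gene names of that table. Of these, 141 carried a detection flag on all 6 arrays and 17 on 2 to 5 arrays. The rule reads names only, not values.

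Introns are removed by the spliceosome, which is built from U1, U2, U4, U5 and U6 small nuclear ribonucleoproteins (snRNPs). U1 reads the start of the intron and U2, with its SF3a and SF3b subunits, the branch point. Several Prpf proteins belong to the U4/U6 and U5 particles, and among them Prpf8 is the scaffold of the catalytic centre. SR proteins bind exons and mostly favour their use, and hnRNP proteins coat the pre-mRNA and often block exons. Muscleblind-like (Mbnl), polypyrimidine tract binding (Ptbp) and Quaking (Qk) proteins adjust particular exons in muscle, heart, nerve and vessels. Mbnl proteins are known to oppose the exon choices typical of embryonic stem cells.

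The deposited values are ratios of each probe set to its median over the 3 double-negative arrays. They compare arrays and say nothing of how abundant one gene is beside another. Differences below are double positive minus double negative on the log2 scale, and SE is the standard error of that difference with 3 arrays per group. The probe set standing for a gene is the one with the most detection flags. Ties, which were common, went to the plainest and lowest identifier. In such bulk samples a change in the cells present and a change of RNA per cell cannot be told apart.

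The splicing genes did not separate the fractions. In limma's moderated test with Benjamini-Hochberg adjustment 0 of the 158 probe sets reached an adjusted p under 0.05, and the lowest adjusted p among them was 0.9449. The same was true of all 22526 probe sets, of which 0 (0.0%) passed. At an unadjusted p under 0.05, 1 splicing probe set was called, which is 0.633% of the splicing probe sets against 4.87% of all those tested. It belonged to Mbnl3 and was on the lower side, where 3.49% of all probe sets were called. Among the probe sets flagged on all 6 arrays the unadjusted count was 0 of 141, against 3.56% of the 14140 of that kind. With the replicate number as a block, 3 of 158 had an unadjusted p under 0.05, 1.9% against 12.3% of all, and 0 passed the adjustment, the lowest adjusted p being 0.3306. Of the 3, the Mbnl2 probe set was on the higher side (5.02% of all), and those of Prpf4b and Sfrs10 on the lower (7.24% of all). The latter were flagged on only 2 arrays (Prpf4b) and 4 arrays (Sfrs10). The count moved with single arrays. Without double-negative replicate 3 it was 12, all lower, which is 7.59% against 6.76% of all in either direction and 5.42% on the lower side. Without double-negative replicate 1 it was 1 (0.633% against 5.87%), and without both replicate 1 arrays 4 (2.53% against 9.31%). The authors' deposited table gives a p-value under 0.05 to 0 of the 158 and to 3.33% of all 22526.

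Most differences were small. A total of 4 of 158 probe sets differed by more than 2-fold, 2.53% against 7.18% of all, and 21 by more than 1.5-fold, 13.3% against 21.1%. The 4 were 2 probe sets of Mbnl3 and 1 of Prpf4b, all lower and flagged on 3, 3 and 2 arrays, and 1 of Hnrnpk, which was higher. Among probe sets flagged on all 6 arrays 1 of 141 differed by that much, against 3.68% of all such probe sets. Replicate pairs by number gave 45 splicing probe sets that were higher in 3 of 3 pairs, 28.5% against 21.5% of all, and 13 that were lower in 3 of 3, 8.23% against 17.7%. The pairing of numbers 2 and 3 was weakly founded: over the splicing probe sets, double-positive replicate 2 correlated with double-negative replicate 3 at 0.4699 and replicates 3 with each other at 0.1740, as deviations from the group means. The median difference over the splicing probe sets was 0.07, beside 0.02 over all. The interval of most single genes was nonetheless wide. The 95% confidence interval lay inside a 2-fold change in both directions for 34 of 158 probe sets, 21.5% against 20.5% of all. With the replicate block it did so for 101, 63.9% against 54.3%. For the remaining probe sets a change of 2-fold was not bounded by these 6 arrays.

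**Figure D1:**
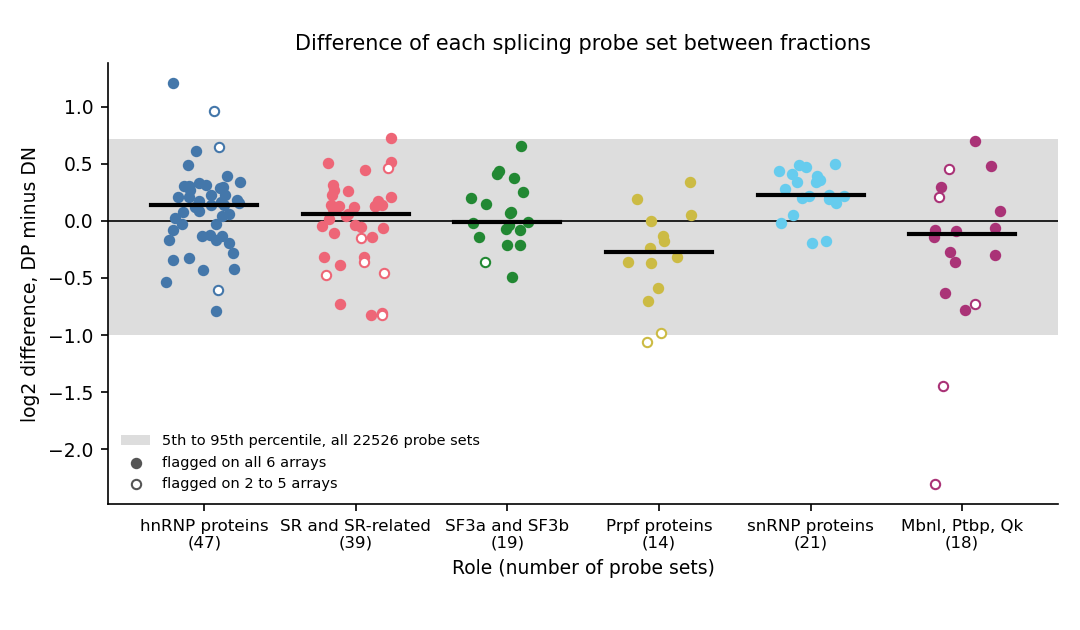
Log2 difference (double positive, DP, minus double negative, DN) of each of the 158 probe sets, grouped by role, with a black bar at the median of each role and filled points for probe sets flagged on all 6 arrays. The grey band spans the 5th to 95th percentile of all 22526 probe sets, and few splicing points lie outside it, the lowest being the open points of Mbnl3.

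The fractions differed in the 2 genes used to sort them, a gap set by the sort itself. Cxcr4 read 5.405, 8.044 and 6.006 (replicates 1 to 3 of the double-positive fraction) against 0.783, 1.954 and 1. Kdr read 4.943, 13.39 and 10.44 against 1, 3.929 and 0.75. Like every other probe set, markers included, these 2 did not pass the adjustment (limma adjusted p = 0.34 and 0.66). Of 12 pluripotency markers 11 had a lower mean in double-positive cells, with a median difference of -1.18, and 8 of 9 measured cardiac progenitor markers a higher one, with a median of 1.69. One array stood apart. The 5' minus 3' signal of 4 control transcripts, a measure that falls as RNA shortens, averaged -1.29 on the log2 scale on double-negative replicate 1, where each of the 4 was below 0, and between 0.05 and 0.30 on the other 5 arrays. Double-positive replicate 1 was the next lowest on Gapdh and beta-actin, at -0.66 and -0.36, while its other 2 controls stood at 0.68 and 1.51. Double-negative replicate 1 was also apart in blood markers, whose mean log2 ratio over 5 measured genes was 2.28 there against -0.01 and -0.88 on the other double-negative arrays and -1.94 to -0.14 on the double-positive ones. The embryonic globin genes Hbb-bh1 and Hbb-y read 37.35 and 10.24 on double-negative replicate 1, Gata1 and Klf1 2.77 and 2.532, and Hba-a1 only 1. Of these 5 genes 1 was flagged on all 6 arrays. The part of blood cells or of RNA quality in the splicing values was not tested. Both replicate 1 arrays also ran low on the splicing genes, with median ratios of 0.703 (DP) and 0.7805 (DN). The medians on the other arrays were 1.161 and 1.071 (DP replicates 2 and 3) and 1 and 1 (DN replicates 2 and 3). Over all tested probe sets the replicate 1 medians were 0.751 and 0.796.

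**Figure D2:**
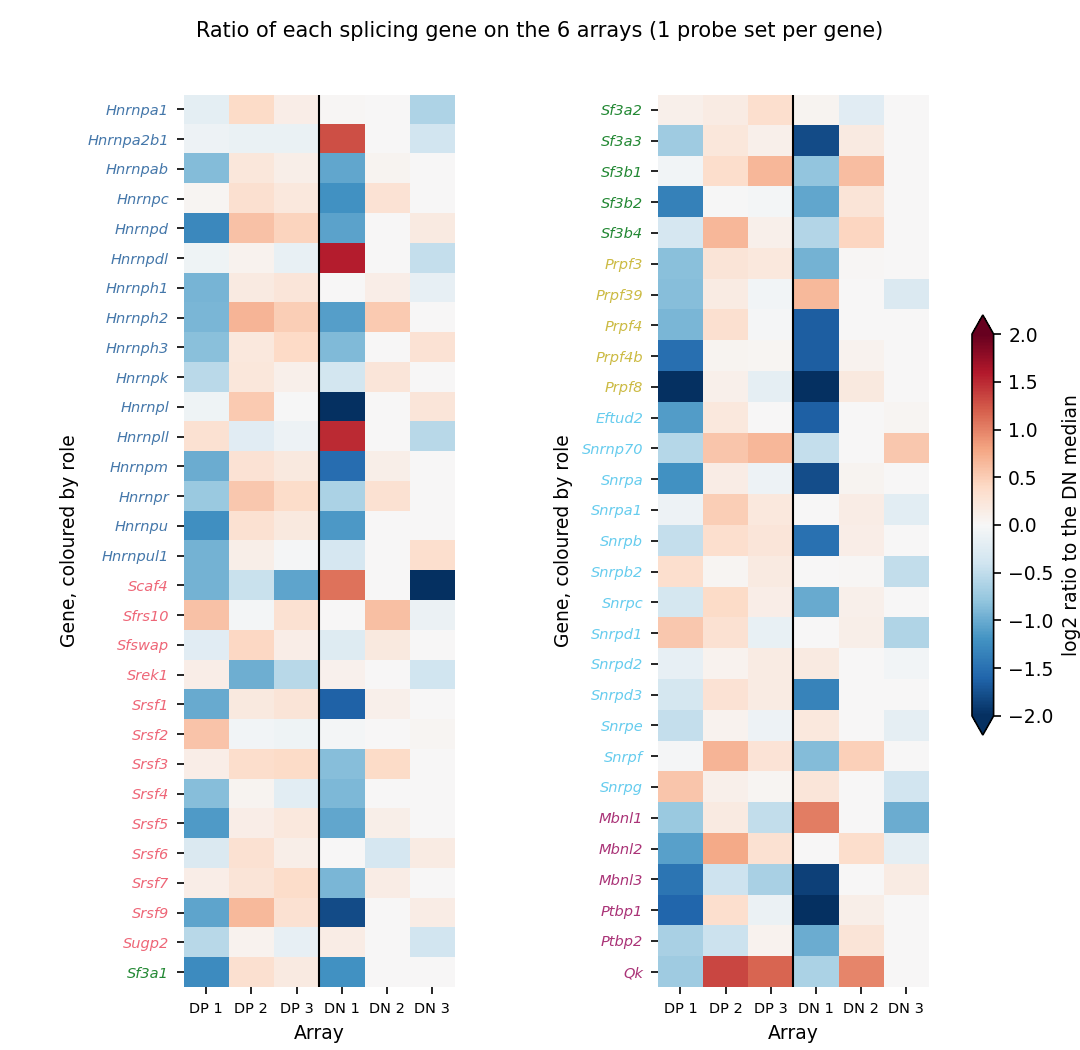
Log2 ratio to the double-negative median on each of the 6 arrays (columns; DP, double positive, DN, double negative) for the 59 genes (rows, 1 probe set per gene), with the names coloured by role in the order of the text. Blue columns at DP 1 and DN 1 show the low ratios of both replicate 1 arrays, and the fractions do not overlap in 2 of the 59 rows.

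The small nuclear ribonucleoprotein genes were the most uniform role, with 21 probe sets of 13 genes. Their median difference was 0.23, and 18 of 21 had a higher mean in double-positive cells, beside 51.7% of all probe sets. Without double-negative replicate 1 the count was 12 of 21, beside 35.2% of all, and without both replicate 1 arrays 19 of 21, beside 52.3%. With all arrays 0 of the 21 had an unadjusted p under 0.05. The Sm proteins form the ring that holds each snRNA. Snrpb, which encodes Sm B, had ratios of 0.722, 1.263 and 1.182 in double-positive cells against 0.354, 1.096 and 1, a 1.41-fold difference (log2 0.49, SE 0.50, limma adjusted p = 0.9999). Without double-negative replicate 1, the lowest array, the difference was -0.03, and without both replicate 1 arrays it was 0.22. The other probe set of Snrpb stood at 0.05. Snrpd3, another Sm protein gene, was also lowest on double-negative replicate 1. It gave 0.782, 1.224 and 1.118 against 0.398, 1.007 and 1 (log2 0.47, SE 0.45). Without that array it was at 0.03 and without both replicate 1 arrays at 0.22, and its other probe set stood at 0.20. Snrpd2 had the smallest difference of the role, with 0.893, 1.052 and 1.121 against 1.131, 1 and 0.962 (-0.02, SE 0.30). Its 95% interval ran from -0.72 to 0.68, inside a 2-fold change.

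Snrpb2, which encodes the U2 protein B'', was the 1 snRNP gene whose groups did not overlap, and they did not on either of its probe sets. The first gave 1.085, 1.376 and 1.311 in double-positive cells against 1, 1.017 and 0.95, a 1.27-fold difference (log2 0.34, SE 0.30). The second gave 1.263, 1.033 and 1.13 against 1, 1.02 and 0.71, also 1.27-fold (0.34, SE 0.32). Neither passed the test (limma adjusted p = 0.9999 for both), and both values were as large without double-negative replicate 1, at 0.35 and 0.42. Snrpb2 was named after its values were seen. In all, 9 of 158 splicing probe sets had groups that did not overlap, 5 higher and 4 lower, which is 5.7% against 9.99% of all probe sets (4.61% higher and 5.38% lower). Without double-positive replicate 1 the order turned, with 55 of 158, or 34.8% against 26.1%.

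The SF3a and SF3b genes, whose proteins bind the branch point as part of U2, had 19 probe sets of 6 genes with a median difference of -0.01, 9 higher and 10 lower. Sf3a3 had the largest difference by gene, with 0.608, 1.176 and 1.077 against 0.288, 1.129 and 1 (log2 0.41, SE 0.57), and it was -0.21 without double-negative replicate 1. Sf3b1, the largest SF3b subunit and a frequent site of mutation in human blood cancers, gave 0.96, 1.277 and 1.582 against 0.579, 1.54 and 1 (0.37, SE 0.43), while its other 3 probe sets lay between -0.21 and -0.04. Sf3a1 differed least, at 0.15 (SE 0.54), with 0.42, 1.248 and 1.133 against 0.434, 1 and 1.007. Without double-negative replicate 1, Sf3b1 stood at 0.01 and Sf3a1 at -0.26. In each of these genes the replicates of a fraction spread more than the fractions differed.

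The direction of the Prpf probe sets depended on the replicate 1 arrays. Of 14 probe sets of 5 genes, 11 had a lower mean in double-positive cells (78.6%, beside 48.3% of all probe sets), with a median difference of -0.27, and 0 had an unadjusted p under 0.05. Without double-negative replicate 1 the count was 13 of 14, beside 64.8% of all. Without both replicate 1 arrays 6 of 14 were lower, beside 47.7%, and the median was 0.02. With all arrays most of the lower probe sets belonged to Prpf4b (5 of 6 lower) and Prpf39 (3 of 3). On the probe sets standing for each gene Prpf3 (0.19), Prpf4 and Prpf4b were higher, and Prpf39 and Prpf8 lower. Prpf39, a protein of the U1 particle, gave 0.554, 1.12 and 0.964 against 1.568, 1 and 0.815 (log2 -0.37, SE 0.41). Another of its 3 probe sets did not overlap between fractions, with 0.812, 0.82 and 0.692 against 1, 0.854 and 1.038 (-0.31, SE 0.30). Prpf4, of the U4/U6 particle, was on the higher side with 0.531, 1.242 and 0.985 against 0.318, 1 and 1.001 (0.34, SE 0.55). It was -0.21 without double-negative replicate 1. Its other probe set stood at -0.001. Prpf8, the scaffold of the catalytic centre, showed how far both replicate 1 arrays sat from the rest: it stood at 0.192, 1.071 and 0.883 against 0.226, 1.15 and 1 (-0.17, SE 0.81). Prpf4b, a kinase of the spliceosome, had 6 probe sets between -1.06 and 0.05, with the one standing for the gene at 0.05 (SE 0.61). A different probe set of it did not overlap, at 0.422, 0.823 and 0.777 against 1.2, 1 and 0.965 (-0.70, SE 0.37), and did not pass the test (limma adjusted p = 0.9999).

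The SR proteins and SR-related proteins had 39 probe sets of 13 genes, with a median difference of 0.06, 22 higher and 17 lower. Srsf9 had the largest difference by gene, with 0.483, 1.569 and 1.232 against 0.289, 1 and 1.11 (log2 0.51, SE 0.64). It was -0.11 without double-negative replicate 1, and the other probe set of the gene stood at -0.81. Srsf7 gave 1.102, 1.197 and 1.286 against 0.532, 1.114 and 1, a 1.42-fold difference (0.51, SE 0.38), and kept 0.18 without that array. The other 2 of its 3 probe sets were lower, the lowest at -0.39, and all 3 were flagged on all 6 arrays. Srsf4 differed least, with 0.557, 1.037 and 0.863 against 0.538, 1 and 1.01 (-0.04, SE 0.40). Srsf3, a small SR protein needed by pluripotent cells and early mouse embryos, was higher on 5 of its 6 probe sets, by between 0.15 and 0.72, and lower on the other at -0.31. None of these differences passed the test. Sfrs10, a name that the reference gives to several genes and which is kept as in the files, had 1 probe set of 4 without overlap. It was flagged on 4 arrays and read 0.827, 0.708 and 0.751 against 2.526, 1 and 0.97 (-0.83, SE 0.43). The other 3, flagged on all 6 arrays, stood between 0.01 and 0.26.

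The hnRNP genes made up the largest role, with 47 probe sets of 16 genes and a median difference of 0.14, 30 higher and 17 lower. Of the 47, 19 were higher without double-negative replicate 1, and 40 when both replicate 1 arrays were left out, beside the same 35.2% and 52.3% of all. Hnrnpl, a regulator of alternative exons, had the largest difference by gene. Its single probe set stood at 0.947, 1.44 and 0.99 in double-positive cells against 0.155, 1 and 1.186 (log2 0.96, SE 0.73), and the groups overlapped. Without double-negative replicate 1 it was 0.02, and without both replicate 1 arrays 0.13. Hnrnpc, which binds uridine tracts in introns, gave 1.023, 1.243 and 1.158 against 0.431, 1.227 and 1 (0.49, SE 0.44), and 0.04 without that array. The other probe set of Hnrnpc, also flagged on all 6 arrays, stood at -0.03. Hnrnpk, a protein that binds cytidine-rich RNA, had the smallest difference by gene. On the probe set standing for it the values were 0.689, 1.164 and 1.077 against 0.776, 1.178 and 1 (-0.03, SE 0.36). A different probe set of Hnrnpk was the highest of the whole family at 1.21 (SE 0.63). There double-positive replicate 1 read 6.754, while replicates 2 and 3 read 1.287 and 1.383 against 1, 0.778 and 1.255. Without both replicate 1 arrays it was 0.43, and the remaining 2 probe sets of the gene stood at -0.17 and 0.18. Hnrnpa1, which often represses exons, was measured by 6 probe sets between -0.35 and 0.39.

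The tissue regulators had the widest spread of the roles when probe sets of any flag count were taken. Their 18 probe sets of 6 genes had a median difference of -0.11 and an SD of 0.73, beside an SD of 0.44 over all splicing probe sets and 0.55 over all tested. The lowest, at -2.30 and -1.45, were 2 Mbnl3 probe sets flagged on 3 arrays each. Those flagged on all 6 arrays ran only from -0.78 (Ptbp2) to 0.70 (Mbnl2). Rbfox2 and Celf1 appear in the table under other names and were outside the rule. Mbnl3, which is known to be expressed in embryonic and placental tissue and to restrain muscle differentiation, was lower on all 4 of its probe sets. The one with the lowest p read 0.259, 0.727 and 0.645 in double-positive cells against 2.551, 1 and 0.973, so the groups did not overlap, and the difference was -1.45 (SE 0.54, 95% interval -2.69 to -0.21, limma unadjusted p = 0.0273, adjusted p = 0.9449). Leaving out double-negative replicate 1 gave -0.99, and leaving out both replicate 1 arrays gave -0.53. A second read 0.0359, 0.127 and 0.54 against 1.508, 1 and 0.197 (-2.30, SE 1.05), where the groups overlapped, and these 2 probe sets were flagged on 3 arrays each. The 2 probe sets of Mbnl3 flagged on all 6 arrays stood at -0.63 (SE 0.49) and -0.28 (SE 0.58). The second of these, which stood for the gene, read 0.362, 0.748 and 0.638 against 0.274, 1 and 1.121. Its difference grew to -0.93 once double-negative replicate 1 was dropped, and stood at -0.62 when its double-positive counterpart was dropped too. Dropping double-negative replicate 2, double-negative replicate 3 or double-positive replicate 1 alone instead gave 0.01, 0.09 and 0.03. One more probe set, listed under a clone name that the reference assigns to Mbnl3 and so outside the rule, stood at 0.13 (SE 0.41) with flags on all 6 arrays. The 5 probe sets of this gene thus did not share 1 direction.

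Mbnl2, whose protein shapes splicing in brain and muscle, had the highest difference among these regulators. On the probe set without overlap it read 2.061, 1.569 and 1.617 against 1.442, 1 and 0.844, a 1.63-fold difference (log2 0.70, SE 0.34, limma unadjusted p = 0.0751, adjusted p = 0.9999). Leaving out the same arrays gave 0.92 and 0.79, and with the replicate block its unadjusted p was 0.0193 and its adjusted p 0.3307. The other 3 probe sets of Mbnl2 stood at 0.45, 0.21 and -0.07, the last with 0.472, 1.687 and 1.239 against 1, 1.282 and 0.881. That last one stood for the gene by its lower identifier. It and the probe set without overlap were both flagged on all 6 arrays. Mbnl1, the main muscleblind-like protein of adult muscle, read 0.599, 1.134 and 0.713 against 2.029, 1 and 0.503 (-0.36, SE 0.53), and was 0.15 without double-negative replicate 1.

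Ptbp1 blocks neural exons in most cells. It read 0.334, 1.264 and 0.918 against 0.194, 1.084 and 1 (log2 0.29, SE 0.75), low on both replicate 1 arrays. Ptbp2, the neural relative of Ptbp1, was lower on all 4 probe sets, at between -0.78 and -0.09. The one standing for the gene read 0.637, 0.746 and 1.05 against 0.502, 1.2 and 1 (-0.09, SE 0.42). Qk acts in myelin and in the forming vessels of the mouse embryo. The probe set standing for it read 0.608, 2.538 and 2.239 against 0.648, 1.971 and 1 (0.48, SE 0.63). There double-positive replicates 2 and 3 were high, replicate 1 was low in both fractions, and the groups overlapped. The other 3 probe sets of Qk stood between -0.73 and 0.09. None of the 18 probe sets passed the adjustment.

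**Figure D3:**
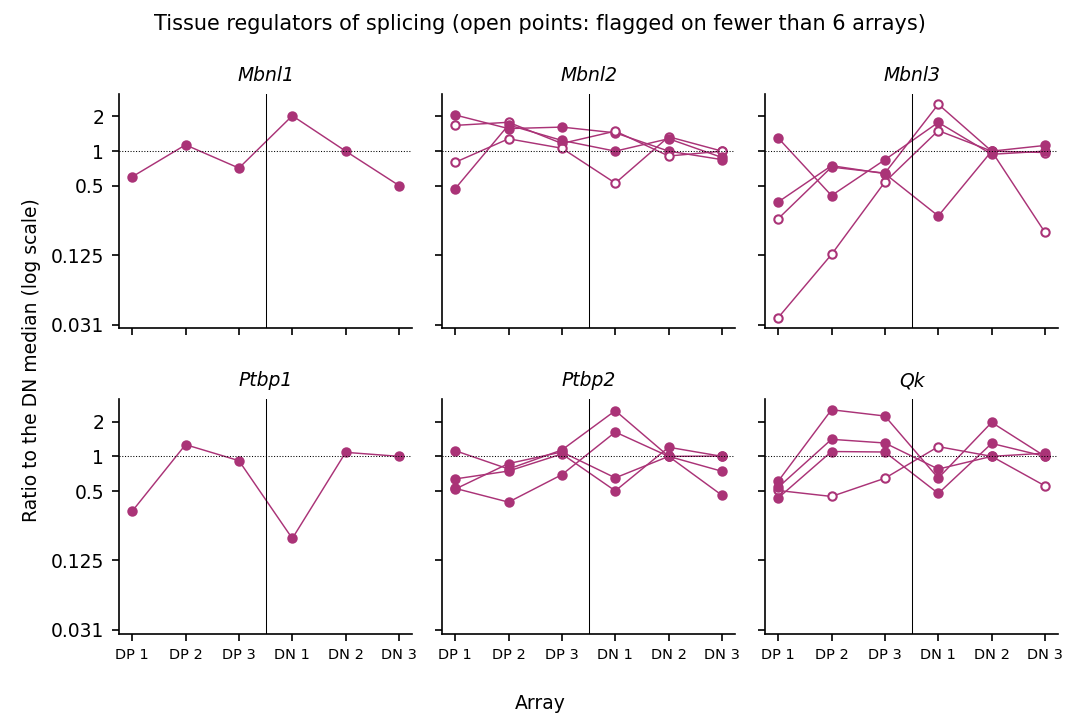
Ratio to the double-negative median (log axis) of every probe set of 6 tissue regulators on the 6 arrays (DP, double positive, left of the line; DN, double negative, right), with open points for probe sets flagged on fewer than 6 arrays. The open lines of Mbnl3 fall to 0.0359 at DP 1, while the Mbnl2 lines lie mostly at or above 1 in DP.

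Promoter sequence is shown for 3 of the genes with a probe set whose groups did not overlap. These were the paralogs Mbnl2 and Mbnl3, whose non-overlapping probe sets had opposite signs, and Snrpb2 as a core spliceosome gene. On the probe sets standing for Mbnl2 and Mbnl3 both were lower, at -0.07 and -0.28. The RefSeq windows (GRCm38.p6) hold 250 bases before and 50 after the annotated start and lie at chr14:120275419-120275718 on the plus strand, chrX:51205941-51206240 on the minus strand and chr2:143062819-143063118 on the plus strand. They are printed 5' to 3' along the gene, and capitals mark every match, on either strand, to GGGCGG for a GC box, TATAAA for a TATA box, CCAAT for the box of that name or CCGGAAG for an ETS core.
Mbnl2: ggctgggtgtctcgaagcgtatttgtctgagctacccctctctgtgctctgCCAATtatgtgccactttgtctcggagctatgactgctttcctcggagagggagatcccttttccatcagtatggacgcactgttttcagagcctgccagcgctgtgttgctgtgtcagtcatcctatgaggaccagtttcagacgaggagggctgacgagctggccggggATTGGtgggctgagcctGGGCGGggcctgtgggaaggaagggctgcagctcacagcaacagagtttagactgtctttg
Mbnl3: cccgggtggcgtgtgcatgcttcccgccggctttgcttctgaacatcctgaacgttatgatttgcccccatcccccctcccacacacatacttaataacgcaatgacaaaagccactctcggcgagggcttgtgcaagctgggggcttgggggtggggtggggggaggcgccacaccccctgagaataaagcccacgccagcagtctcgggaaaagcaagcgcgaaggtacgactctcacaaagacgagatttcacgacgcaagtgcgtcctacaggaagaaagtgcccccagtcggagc
Snrpb2: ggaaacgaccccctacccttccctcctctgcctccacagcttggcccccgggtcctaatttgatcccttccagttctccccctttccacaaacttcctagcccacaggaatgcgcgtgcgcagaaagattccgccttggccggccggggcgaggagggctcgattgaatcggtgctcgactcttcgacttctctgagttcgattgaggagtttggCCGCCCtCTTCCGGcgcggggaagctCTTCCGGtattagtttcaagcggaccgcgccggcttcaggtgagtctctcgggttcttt
The Mbnl2 window holds 1 GC box and 2 CCAAT boxes, the Mbnl3 window holds 0 of the 4 motifs, and the Snrpb2 window holds 1 GC box and 2 ETS cores. Over the splicing genes RefSeq gave 67 such windows for 53 of the 59 genes. An ETS core was in 28.4% of them, beside 16.9% of the 11588 windows of genes in the authors' comparison table and 8.86% of all 32851 windows. A GC box was in 67.2%, beside 62.1% and 35.7%, a CCAAT box in 37.3%, beside 37.5% and 37.4%, and a TATA box in 8.96%, beside 7.81% and 13.6%. The median window of a splicing gene held 26 CpG sites, beside 20 for the comparison table and 7 for all windows. These are matches of letters and were not tested as binding sites.

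Probe sets of the same splicing gene often disagreed. Of the 38 genes with more than 1 probe set, 24 had probe sets with differences of both signs (63.2%), beside 43.4% of all 5193 tested genes with more than 1. The splicing genes had more probe sets each, 3.61 on average against 2.75, which by itself leaves more room for disagreement. On double-negative replicate 1 the highest and lowest ratio within a gene were more than 2-fold apart for 25 of the 38 genes (65.8%, beside 37.3% of all such genes). On double-negative replicates 2 and 3 this held for 2 and 9 (5.26% and 23.7%, beside 5.35% and 13.4%). On double-positive replicates 1 to 3 it held for 14, 9 and 5 (36.8%, 23.7% and 13.2%, beside 32.8%, 20.1% and 17.4%). Division by the double-negative median draws the double-negative ratios toward 1, which makes the counts of the 2 groups unequal by construction. Hnrnpu, a nuclear scaffold protein gene named after its values were seen, had 5 probe sets. Of these, 1 read 0.772, 0.652 and 0.6 against 3.009, 1 and 0.523, and another 0.439, 1.287 and 1.101 against 0.39, 1.12 and 1. The first was high on double-negative replicate 1 and the second low on it. Srsf7 ran from 0.532 to 4.31 on that array, and Srsf3 from 0.354 to 1.963.

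Signs of many differences turned with this array, over all probe sets as well as the splicing genes. On double-negative replicate 1, 15 splicing probe sets had a ratio above 2, 9.49% against 3.76% of all tested, and 40 a ratio below 0.5, 25.3% against 21.1%. Since that array enters the difference, the 15 were all lower in double-positive cells and 35 of the 40 higher (87.5%). The same classes over all probe sets were lower in 83.9% and higher in 67.9%. Without that array, 6 of the 15 were lower (40.0%, beside 52.4% of the class over all probe sets) and 33 of the 40 lower (82.5%, beside 83.3%). Double-positive replicate 1 stayed in this fit and was also low in the class of 40, with a median ratio of 0.50 and 21 below 0.5. The turn in that class was therefore partly built in and is no reading of double-negative replicate 1 alone.

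**Figure D4:**
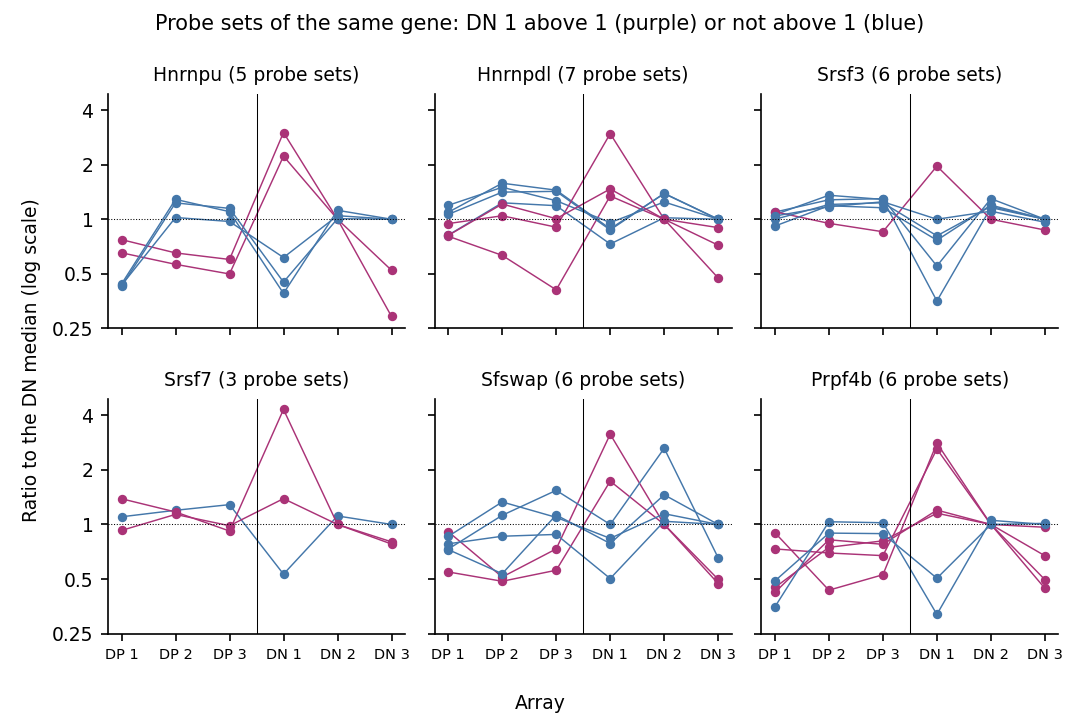
Ratio to the double-negative median (log axis) of each probe set of 6 genes on the 6 arrays (DP, double positive; DN, double negative), coloured purple where DN 1 is above 1 and blue otherwise. Within one gene the lines part at DN 1, as for Srsf7 from 0.532 to 4.31, and lie closer on most other arrays.

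Other splicing genes were described from 2 lists of proteins outside these families. Of the further core spliceosome proteins, 71 of 76 were measured by 154 probe sets, and limma called 4 of these at an unadjusted p under 0.05, namely 1 higher and 3 lower, 2.6% against 4.87% of all. Of the further splicing regulators, 54 of 68 were measured by 165 probe sets, and 4 were called so, 1 higher and 3 lower, 2.42%. In both lists 0 probe sets passed the limma adjustment. With the replicate block the counts were 7 (4.55%) and 18 (10.9%), 7 higher and 11 lower among the latter, against 12.3% of all.

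Rbm24, Esrp1 and Elavl2 had the lowest p among the regulators on the probe set standing for each gene. Rbm24, which promotes heart and muscle exons, read 1.61, 2.241 and 3.863 in double-positive cells against 0.658, 1 and 1.138. The groups did not overlap, and it was 2.65-fold higher (log2 1.41, SE 0.42, 95% interval 0.44 to 2.38, limma unadjusted p = 0.01, adjusted p = 0.77). The value was 1.17 without double-negative replicate 1. Esrp1, the epithelial splicing regulator, read 0.112, 0.258 and 0.582 against 0.625, 1 and 1.558, also without overlap, and was 3.87-fold lower (-1.95, SE 0.62, limma unadjusted p = 0.0131, adjusted p = 0.81). It was -2.28 without that array. Of 7 markers of epithelium, all measured, 5 had a lower mean in double-positive cells. The list's mean log2 ratio ran from -1.21 to -0.21 in the double-positive arrays and from -0.89 to 0.32 in the double-negative ones, and all but 1 of the 7 were flagged on all 6 arrays. Their part in the Esrp1 value was not tested. Elavl2, an ELAV-type RNA-binding protein gene of neurons and germ cells, read 0.367, 0.725 and 0.743 against 1, 0.923 and 1.283 (-0.86, SE 0.39), and its groups did not overlap either.

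Among the core proteins, the 3 genes with the lowest p on the probe set standing for each had overlapping groups. U2af1, which reads the end of the intron, stood at 1.021, 1.783 and 1.972 against 0.3, 1 and 1.818 (log2 0.91, SE 0.64), and at 0.18 without that array. Rbm25, a factor linked to U1, stood at 0.401, 0.524 and 0.468 against 2.257, 1 and 0.435 (-1.11, SE 0.57), and at -0.51 without it. Srrm1, a partner of SR proteins, stood at 0.767, 0.595 and 0.784 against 3.359, 1 and 0.755 (-0.94, SE 0.55), and at -0.29 without it. None of the 3 passed the test.

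**Figure D5:**
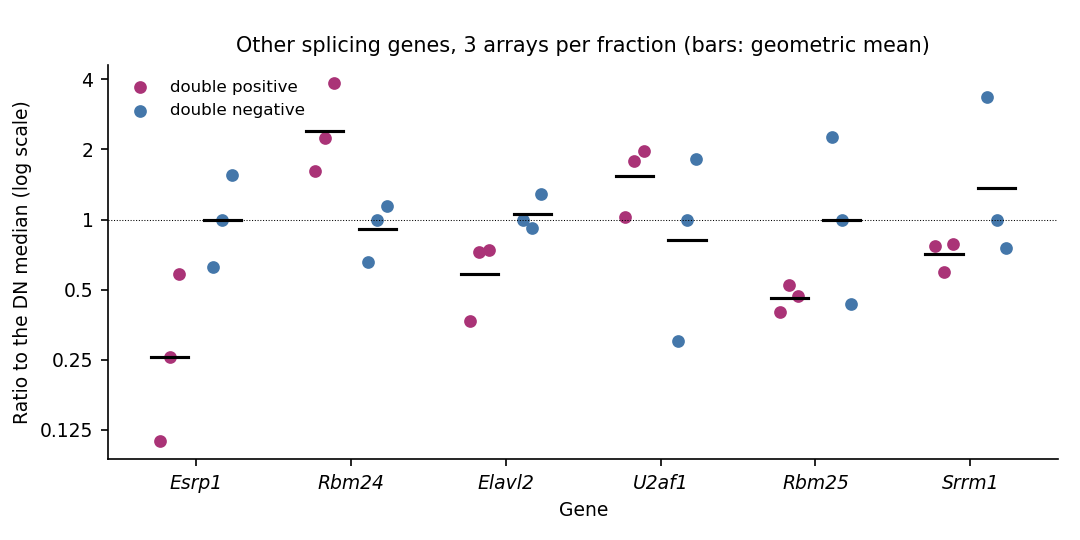
Ratio to the double-negative median (log axis) of 6 splicing genes outside the families, with 3 points per fraction and a bar at the geometric mean. Esrp1 and Elavl2 on the lower side and Rbm24 on the higher side show groups that do not overlap, while the groups of U2af1, Rbm25 and Srrm1 overlap, with double-negative points spread from 0.3 to 1.818, 0.435 to 2.257 and 0.755 to 3.359.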

How the data were processed

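Per the labels, total RNA of each of 6 samples was hybridised to 1 Affymetrix mouse expression array. The deposited value table holds linear ratios of 45101 probe sets: in 100% of them the double-negative median equals 1, so the authors had scaled each probe set by it. The sources used here do not give the probe summary, background correction or array scaling. Precision is limited by having 6 arrays. The authors' deposited comparison table gives a fold, a p-value and, per the file headers, a flag pass value from 2 to 6, read here as the number of arrays with a detection flag. Its fold equals the ratio of geometric means within 1% for 100% of the 22526 probe sets tested. Controls (64) were left out.

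With no brightness in the files, log2 of the plain ratio, no pseudocount added, went into two-sided moderated tests (lmFit, then eBayes, limma 3.58.1, R 4.3.3) over the 22526 probe sets, with Benjamini-Hochberg adjustment. Code was checked on simulated data. Names were updated through RefSeq (GRCm38.p6, names only). Proteins were planned but not analysed here. Members, lists and tests were chosen with earlier results of these data known. Each gene stood by 1 probe set: most flags, then the plainest and lowest identifier. Named were all tissue regulators, the largest 2 and the smallest difference of each other role and the 3 lowest p of each further list; others were named after their values were seen. Marker lists of blood, endothelium, extraembryonic endoderm and neural ectoderm had median differences of -1.85 (with double-negative replicate 1 far above the rest), 1.54, -0.10 and -0.12. Same-numbered samples deviated together over all probe sets, with correlations of 0.4868, 0.3398 and 0.2064, each over 0.1, so the replicate number was also fitted as a block. Numbers 2 and 3 were hardly told apart, since replicates 2 and 3 across the groups correlated at 0.2154 and 0.2054. Deviations from a group mean cancel out within the group. A shift shared by both replicate 1 arrays therefore draws replicates 2 and 3 together across the groups, whatever their numbers. The values for numbers 2 and 3 thus do not establish their pairing. Alternatives covered the block, scaling, variance model, array weights, pseudocount, filters and each array left out.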

Additional observations from a re-analysis of the deposited data

How the results depend on the processing

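Over 18 alternatives 0 splicing probe sets passed the adjustment, the lowest adjusted p being 0.1089 (array weights, where 0.83% of all probe sets passed; 0.0354% passed with the block and all 6 flags). The unadjusted count, 1 of 158 as reported, was 3 with the replicate block (1.9% against 12.3% of all), 5 with the block and all 6 flags (3.55% against 15.1%), 7 with array weights (4.43% against 14.7%), 2 after median centring (1.27% against 6.24%) or with the trend and robust variance (1.27% against 3.23%), and 0 with 1 probe set per gene, all 6 flags, quantile normalization or the Welch test. It was 0 to 12 with 1 array left out (DN for double negative, DP for double positive: 12, all lower, without DN 3, 0 without DP 1, and 2 without DP 2, DP 3 or DN 2). It was 4 with both replicate 1 arrays left out, an alternative chosen after seeing the data. For the other splicing genes, 8 as reported, the counts were 25, 28, 32, 4 (quantile normalization), 5 (all probe sets of the value table) and 2 (1 probe set per gene), with the block, the block and flags, and array weights first. They were 4 to 40 with 1 array left out (40 without DN 3, 4 without DN 1) and 16 with both replicate 1 arrays out. Splicing probe sets without overlap, 9 as reported, numbered 4 after quantile normalization, 2 with 1 probe set per gene, 12 to 55 with 1 array left out and 71 with both replicate 1 arrays out, where fewer arrays overlap less. Without DP 1 there were 55, 47 higher and 8 lower, 34.8% against 26.1% of all, which turns the order of the reported 5.7% against 9.99%; with both replicate 1 arrays out it was 44.9% against 42.7%. Without DN 3, DN 2, DN 1 and DP 3 there were 24, 20, 18 and 14 (15.2%, 12.7%, 11.4% and 8.86% against 20.2%, 17.3%, 24.7% and 16.7%). The median difference ran from -0.12 to 0.27 with 1 array left out; it was below 0 without DN 1 (-0.11), DP 2 (-0.12) or DP 3 (-0.04). Of the 27 genes named by rule, 15 changed sign under at least 1 alternative and none of those passed; 1 value passed, Rbm24 with array weights (1.71, limma adjusted p = 0.0458). The cause of these shifts was not tested. The block changed no call of a splicing probe set after adjustment.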

Other observations

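Rbfox2, a splicing regulator of muscle and nerve, and Celf1, an antagonist of Mbnl proteins on shared exons, stand in the authors' comparison table under older names and are given here as values chosen after they were seen. Of 3 Rbfox2 probe sets, 1 flagged on 2 arrays read 1.335, 2.572 and 1.569 in double-positive cells against 1.036, 1 and 0.739, a log2 difference of 0.94 (SE 0.37), with groups that did not overlap. The 2 flagged on all 6 arrays stood at 0.48 (SE 0.38) and 0.32 (SE 0.39), where the groups overlapped. The 3 Celf1 probe sets lay on the other side, at -0.37, -0.15 and -0.12, each within 1 SE of 0. A further 13 probe sets outside the rule share a current symbol with 7 of the genes described. Among them 4 of the 5 for Srek1, an SR-related protein gene, stood between -1.04 and -0.21 and the other at 0.29.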
